A study of Mus musculus with 12 samples.

Results

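The expression of 37 genes of the apoptosis machinery was compared between Nfat5-KO and Scr mpkCCD cells in isotonic and in hypertonic medium. The genes were the members of the BCL2 family, caspases and apoptosis regulators whose symbols matched a fixed list, and all 37 were found among the 52015 genes used. By their main role, 25 were counted as pro-apoptotic, 9 as anti-apoptotic and 3 as having both roles. The level was at least 0.5 FPKM in at least 1 group for 33 of them, namely 22 pro-apoptotic genes, 8 anti-apoptotic genes and the 3 with both roles. FPKM is the number of fragments per kilobase of transcript, scaled for the depth of sequencing. A comparison of FPKM between groups still depends on how the columns are scaled, as described below.

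The mpkCCD line is a mouse cell line of the cortical collecting duct. Scr cells were wild type cells transduced with a scramble, non-targeting guide RNA, and Nfat5-KO cells came from the CRISPR/Cas9 clones N1 and N3, so that the knockout is represented by 2 clones. Cells were kept for 5 days at 300 mosmol/kg or at 600 mosmol/kg, the latter reached by adding 100 mM NaCl and 100 mM urea to the medium. Of the 12 libraries, 4 were from Nfat5-KO cells and 2 from Scr cells at each osmolality. The groups are called Scr_300, Scr_600, Nfat5-KO_300 and Nfat5-KO_600. The deposited values hold 1 FPKM value per gene and group and no value per library, so every value below is the authors' value of a group, without an SD, and no difference could be set against the spread between cultures or tested. A gene is described as higher or lower between groups where the ratio of FPKM + 0.1 was at least 1.5-fold.

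Apoptosis is a form of cell death carried out by caspases, proteases that are made as inactive precursors. In the mitochondrial pathway, BH3-only proteins sense damage and either bind the guardian proteins of the BCL2 type or activate the effectors Bax and Bak1, which open the outer mitochondrial membrane and release cytochrome c. In the death receptor pathway, ligands of the tumor necrosis factor family activate caspase 8 through receptors such as Fas. NFAT5 is the transcription factor that drives osmoprotective genes in hypertonic medium, and cells of the renal medulla live under high concentrations of NaCl and urea, both of which can cause cell death at high doses.

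Nfat5 mRNA, the target of the knockout, was at 5.61 FPKM in Scr_300, 7.93 in Scr_600, 3.47 in Nfat5-KO_300 and 6.88 in Nfat5-KO_600, with log2 ratios of -0.68 at 300 and -0.20 at 600 mosmol/kg. The mRNA level therefore does not separate the genotypes at 600 mosmol/kg, and the level of an edited transcript is no check of its protein. FPKM summed to 254885 in Scr_300, 232921 in Scr_600, 251998 in Nfat5-KO_300 and 212963 in Nfat5-KO_600. The depth of the libraries is unknown. Of 17 markers of principal cells, 10 reached 0.5 FPKM in a group, with a summed level between 1052 and 1542 FPKM that came mostly from general epithelial genes such as Epcam and Krt18. Among the defining markers, Aqp2 and Avpr2 were at 0.245 FPKM or less in every group. Gata3, Hsd11b2, Scnn1a and Tfcp2l1 were at least 2-fold higher in Nfat5-KO_600 than in Scr_600, with Gata3 at 30.0 beside 4.33 FPKM. Kcnj1 was lower in Nfat5-KO_600, at 0.0740 beside 0.725 FPKM in Scr_600. Of the 10 markers compared there, 6 had a log2 ratio above 0 and 4 had one below 0. None of the lists of intercalated cell, thick ascending limb, fibroblast and endothelial markers had a gene at 0.5 FPKM. The list of proximal tubule markers summed to 23.7, 318, 1.02 and 4.75 FPKM in Scr_300, Scr_600, Nfat5-KO_300 and Nfat5-KO_600, of which Aqp1, a water channel gene, held 23.6, 318, 0.653 and 3.51. Lrp2, the only other gene of that list to reach 0.5 FPKM, went the opposite way between the genotypes. It was at 0.000936, 0.0116, 0.168 and 1.07 FPKM in the same order. Of 4 immune markers, Cd68 alone reached 0.5 FPKM, while Ptprc was at 0.0224 FPKM or less. The part of these differences in the levels of the apoptosis genes was not tested.

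**Figure D1:**
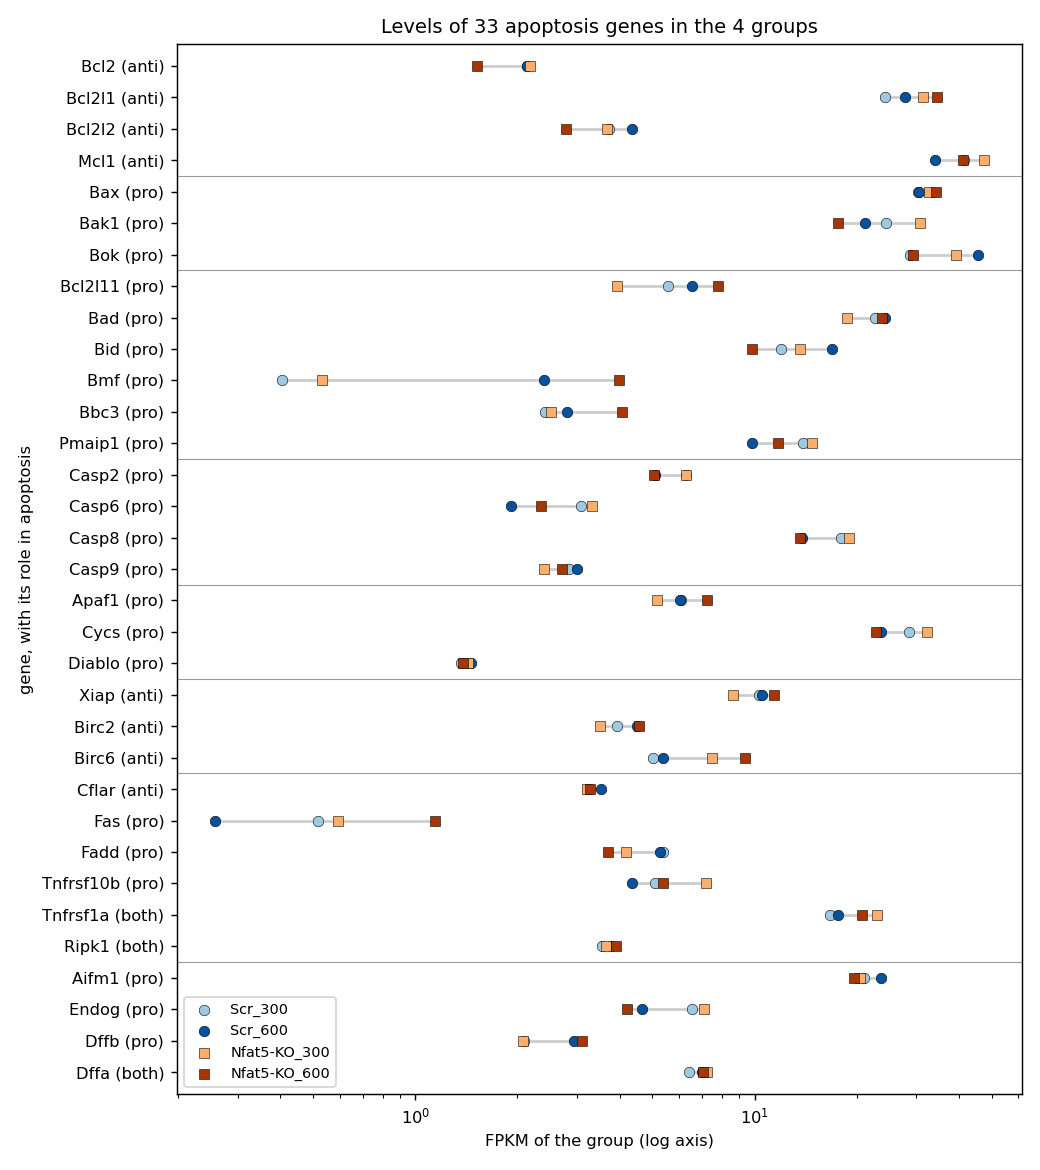
The level of each of the 33 genes in FPKM (log axis) is drawn for the 4 groups, 1 point per group, with a grey line from the lowest to the highest group and rules between the roles. Most genes span a short range, whereas the points of Bmf (0.404 to 3.98 FPKM) and Fas (0.257 to 1.14 FPKM) lie far apart.

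Most of the apoptosis genes kept similar levels across the 4 groups. Of the 33 genes, 22 stayed within 1.5-fold in all 4 comparisons, with log2 ratios between -0.50 and 0.56, and 11 were at least 1.5-fold higher or lower in at least 1 of them. These 11 were the pro-apoptotic genes Bmf, Bcl2l11, Bbc3, Bid, Bok, Bak1, Fas, Casp6 and Endog and the anti-apoptotic genes Bcl2l2 and Birc6. None of the 3 genes with both roles was among them. Most of all genes were also within 1.5-fold in each single comparison. For the knockout these were 11245 of 12704 genes at 300 and 10545 of 13063 at 600 mosmol/kg. For hypertonicity they were 10419 of 12929 in Scr and 9354 of 12982 in Nfat5-KO cells. The share of all genes within 1.5-fold in all 4 comparisons was not calculated.

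Under isotonic conditions, which asks for an effect of the knockout before any osmotic stress, no member was 1.5-fold higher or lower in Nfat5-KO cells. Over all 12704 genes compared, 5.27% were higher and 6.21% were lower. The gene closest to the threshold was Birc6, with a log2 ratio of 0.56. The median log2 ratio was 0.09 for the 22 pro-apoptotic genes and 0.01 for the 8 anti-apoptotic genes, beside -0.001 for all genes.

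Under hypertonic conditions, 3 of 33 members (9.09%) were higher in Nfat5-KO than in Scr cells, and 3 (9.09%) were lower, beside 9.84% and 9.44% of all 13063 genes. The higher genes were Fas, Birc6 and Bmf, and the lower genes were Bid, Bok and Bcl2l2. These shares lie near those of all genes, so that the count says nothing particular about apoptosis genes, and each direction held pro- and anti-apoptotic genes. The medians were -0.02 for the pro-apoptotic and 0.07 for the anti-apoptotic genes, beside -0.02 for all genes.

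The response to hypertonicity was compared within each genotype. In Scr cells, Bmf and Bok were higher and Casp6 and Fas were lower at 600 mosmol/kg, which is 6.06% of the members in each direction, beside 10.4% of all 12929 genes higher and 9.01% lower. In Nfat5-KO cells, Bmf, Bcl2l11, Fas and Bbc3 were higher (12.1% of the members) and Bak1 and Endog were lower (6.06%), beside 14.1% and 13.8% of all 12982 genes. All 4 genes that were higher in hypertonic Nfat5-KO cells were pro-apoptotic, and so were both that were lower. The pro-apoptotic genes had medians of 0.00 in Scr and -0.11 in Nfat5-KO cells, the anti-apoptotic genes of 0.11 and 0.08, and all genes of -0.04 in both.

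The difference of the hypertonic log2 ratios, Nfat5-KO minus Scr, shows which genes responded unequally in the genotypes. It was at least 1.5-fold positive for Fas and Bcl2l11 (6.06% of the members, beside 9.48% of all 13414 genes) and at least 1.5-fold negative for Bok, Bid, Bcl2l2 and Bak1 (12.1%, beside 8.75%). The hypertonic ratio pointed in opposite directions in the genotypes for 9 of 33 members and for 26.5% of all genes. It was larger in size in Nfat5-KO cells for 23 of 33 members and for 60.9% of all genes. The 4 comparisons share their groups, so that a gene with an unusual value in a single group counts in several of them.

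These counts depend on how the columns are scaled. When every column was brought to the same sum, the median of all genes moved to 0.14 between the genotypes at 600 mosmol/kg, to 0.10 for hypertonicity in Scr and to 0.26 in Nfat5-KO cells. The members counted higher and lower then became 1 and 0 for the knockout at 300 mosmol/kg, 4 and 1 for the knockout at 600 mosmol/kg, 4 and 1 for Scr cells, and 9 and 0 for Nfat5-KO cells. The shares of all genes higher and lower were then 9.76% and 10.2%, 21.0% and 9.65%, 18.8% and 9.53%, and 31.0% and 8.54% in the same order. A log2 ratio in the following paragraphs is from the FPKM values as deposited, and the direction of a small ratio depends on this scale.

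**Figure D2:**
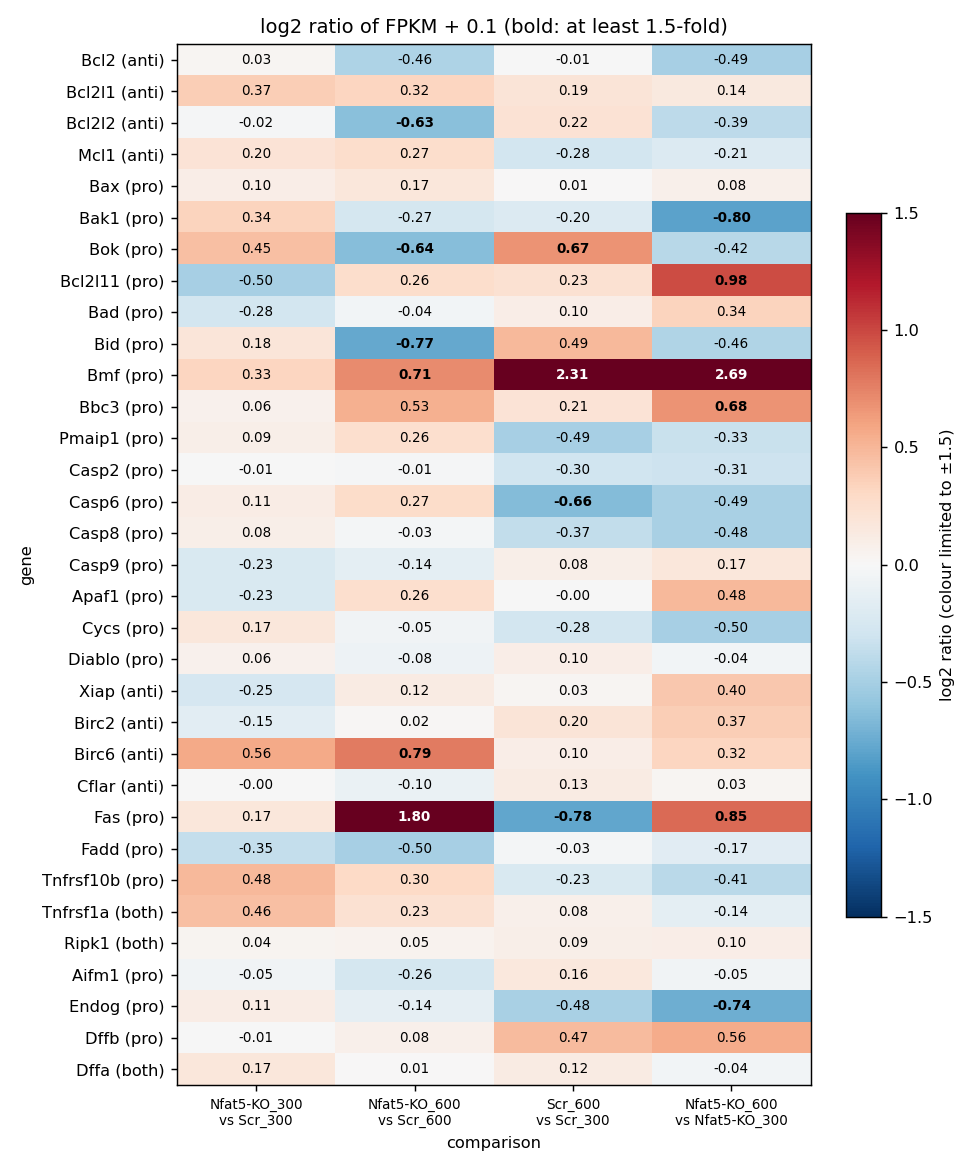
Each cell gives the log2 ratio of FPKM + 0.1 of a gene (rows, ordered by role) in a comparison (columns), red for higher and blue for lower, with ratios of at least 1.5-fold in bold and the colours limited to ±1.5. The first column holds no bold value, and Bmf holds bold values of 0.71, 2.31 and 2.69 in the others.

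The guardians Bcl2, Bcl2l1 (encoding BCL-XL), Bcl2l2 (encoding BCL-W) and Mcl1 keep the effectors in check. Their summed level was 71.5 FPKM in Scr_300, 68.3 in Scr_600, 84.7 in Nfat5-KO_300 and 80.0 in Nfat5-KO_600. Between 90.5% and 94.6% of this sum came from Mcl1 and Bcl2l1. Mcl1, a guardian with a short-lived mRNA and protein, was at 41.4 FPKM in Scr_300, 34.1 in Scr_600, 47.5 in Nfat5-KO_300 and 41.1 in Nfat5-KO_600. It was the highest of the 37 genes in Scr_300 and stood above 91.5% of the 13414 genes that passed the filter. Bcl2l1 was at 24.3 FPKM in Scr_300, 27.7 in Scr_600, 31.3 in Nfat5-KO_300 and 34.6 in Nfat5-KO_600. Both genes were above Scr in Nfat5-KO cells at each osmolality, with log2 ratios between 0.20 and 0.37, all within 1.5-fold.

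The guardians with low mRNA levels went the other way in hypertonic Nfat5-KO cells. Bcl2l2 (chromosome 14, 54883377 to 54888234, plus strand) was at 3.72 FPKM in Scr_300, 4.35 in Scr_600, 3.67 in Nfat5-KO_300 and 2.78 in Nfat5-KO_600. Scr_600 was its highest and Nfat5-KO_600 its lowest group, with a log2 ratio of -0.63 between them. A pseudocount of 1 or columns scaled to an equal sum brought this ratio to -0.50 and -0.52, within 1.5-fold. Bcl2l2 overlaps the annotated gene Gm20521 on the same strand, and reads of the shared part cannot be assigned to either. Bcl2, the founding member of the family, was at 2.14, 2.13 and 2.18 FPKM in Scr_300, Scr_600 and Nfat5-KO_300 and at 1.52 in Nfat5-KO_600. Its log2 ratio of -0.46 between the genotypes at 600 mosmol/kg was within 1.5-fold.

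The effectors Bax, Bak1 and Bok, the last a relative of Bax and Bak1 that the guardians do not readily hold back, summed to 83.5 FPKM in Scr_300, 97.5 in Scr_600, 103 in Nfat5-KO_300 and 81.4 in Nfat5-KO_600. Bax was nearly level, at 30.4, 30.5, 32.6 and 34.4 FPKM in the same order. Bok (chromosome 1, 93685660 to 93695764, plus strand) was at 28.7 FPKM in Scr_300, 45.7 in Scr_600, 39.3 in Nfat5-KO_300 and 29.4 in Nfat5-KO_600. It was thus higher at 600 mosmol/kg in Scr cells (log2 ratio 0.67) and lower there in Nfat5-KO cells (log2 ratio -0.42, within 1.5-fold). The difference between these ratios, -1.09, was the most negative of the 33 genes. Between the genotypes at 600 mosmol/kg, the log2 ratio of Bok was -0.64, which columns scaled to an equal sum brought to -0.51.

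Bak1 (chromosome 17, 27019810 to 27029009, minus strand) was at 24.4 FPKM in Scr_300, 21.2 in Scr_600, 30.8 in Nfat5-KO_300 and 17.6 in Nfat5-KO_600. The highest and the lowest value were thus both in Nfat5-KO cells, with a log2 ratio of -0.80 at 600 against 300 mosmol/kg beside -0.20 in Scr cells. With columns scaled to an equal sum the ratio in Nfat5-KO cells was -0.56, within 1.5-fold. The share of Bax in the summed effectors was 36.4% in Scr_300, 31.3% in Scr_600, 31.7% in Nfat5-KO_300 and 42.2% in Nfat5-KO_600, and the ratio of Bax to Bak1 was 1.25, 1.44, 1.06 and 1.95 in these groups. The difference of the hypertonic ratios of Bak1 was -0.60, which was within 1.5-fold with a pseudocount of 1 (-0.58). Bak1 overlaps Ggnbp1 on the other strand.

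**Figure D3:**
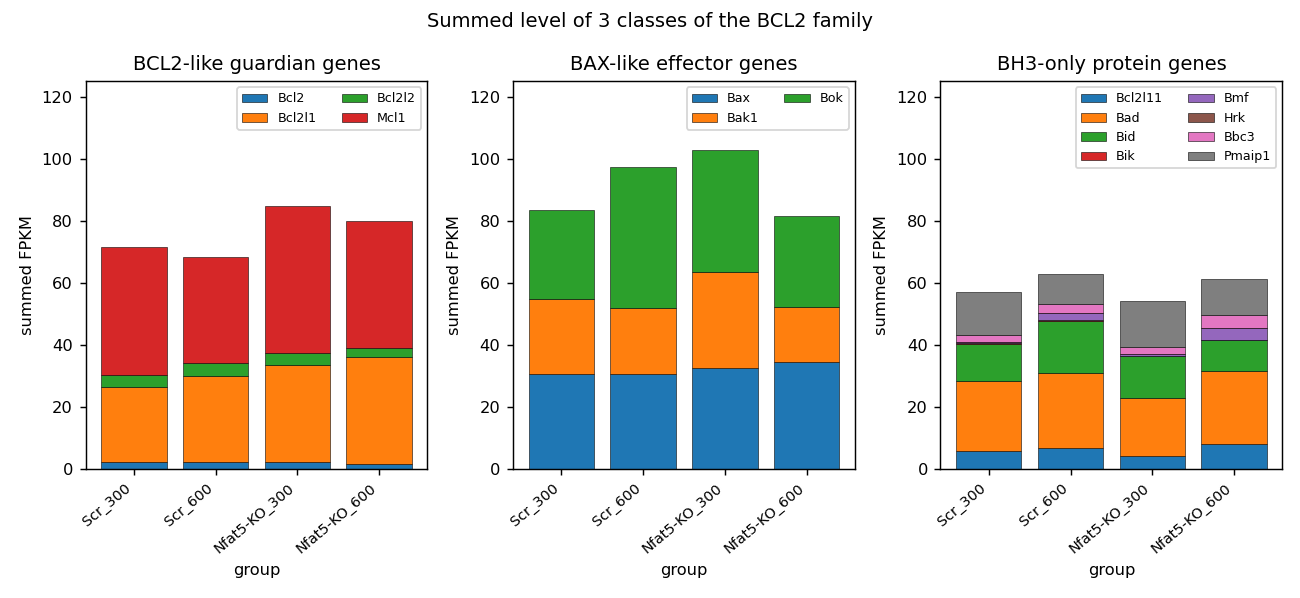
Stacked bars give the summed FPKM of the guardians, the effectors and the BH3-only genes in the 4 groups, each colour a gene, from 0. Mcl1 and Bcl2l1 make up most of the guardians, Bok is the largest part of the effectors in Scr_600, and Bmf appears as a visible band of the BH3-only genes at 600 mosmol/kg only.

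The level of guardians relative to effectors was 0.856 in Scr_300, 0.700 in Scr_600, 0.825 in Nfat5-KO_300 and 0.983 in Nfat5-KO_600. Hypertonic Scr cells thus had the lowest and hypertonic Nfat5-KO cells the highest ratio of mRNA. The low value of Scr_600 rested on Bok, since the ratio to Bax and Bak1 alone, calculated after the data were seen, was 1.30 in Scr_300, 1.32 in Scr_600, 1.34 in Nfat5-KO_300 and 1.54 in Nfat5-KO_600. Relative to the BH3-only genes, the guardians stood at 1.25, 1.09, 1.57 and 1.31, highest in Nfat5-KO_300. Taken over all 9 anti-apoptotic against all 25 pro-apoptotic genes, the ratio of summed levels was 0.380, 0.360, 0.401 and 0.462 in the same order. These are ratios within a group, which a change of the column scale leaves as they are, and they describe mRNA and not protein.

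The largest hypertonic ratios of the members were those of Bmf, a BH3-only gene. BH3-only genes encode the sensors of the family and were Bcl2l11 (encoding BIM), Bad, Bid, Bik, Bmf, Hrk, Bbc3 (encoding PUMA) and Pmaip1 (encoding NOXA). Their summed level was 57.0 FPKM in Scr_300, 62.9 in Scr_600, 54.1 in Nfat5-KO_300 and 61.3 in Nfat5-KO_600. Of the 6 with at least 0.5 FPKM, in hypertonic medium 1 was higher in Scr and 3 were higher in Nfat5-KO cells, beside 10.4% and 14.1% of all genes, and none was 1.5-fold lower in either. Without Bmf, no BH3-only gene passed 1.5-fold in Scr cells, and Pmaip1 lay below its isotonic level in both genotypes.

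Bmf (chromosome 2, 118528757 to 118549687, minus strand) encodes a BH3-only protein that binds the guardians and is otherwise held at the cytoskeleton. It was at 0.404 FPKM in Scr_300, 2.40 in Scr_600, 0.532 in Nfat5-KO_300 and 3.98 in Nfat5-KO_600. Both hypertonic groups lay above both isotonic groups. The log2 ratio of 600 against 300 mosmol/kg was 2.31 in Scr and 2.69 in Nfat5-KO cells, the only ratios over 2-fold among the members in these comparisons. The difference of 0.38 between the genotypes was within 1.5-fold. Isotonic levels of Bmf were low, above only 5.77% of the genes used in Scr_300. A pseudocount of 1 brought the hypertonic ratios to 1.28 in Scr and 1.70 in Nfat5-KO cells. At 600 mosmol/kg, Bmf was higher in Nfat5-KO cells by a log2 ratio of 0.71, which a pseudocount of 1 brought to 0.55. Bmf contributed 0.709% of the summed BH3-only level in Scr_300 and 6.50% in Nfat5-KO_600.

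Bcl2l11 (chromosome 2, 128126038 to 128162547, plus strand), whose product BIM binds all guardians, was at 5.57 FPKM in Scr_300, 6.52 in Scr_600, 3.92 in Nfat5-KO_300 and 7.82 in Nfat5-KO_600. Its lowest and its highest level were in Nfat5-KO cells, where the hypertonic log2 ratio was 0.98 beside 0.23 in Scr cells. Bbc3 (chromosome 7, 16308393 to 16318205, plus strand), a p53 target gene, was at 2.41, 2.79, 2.51 and 4.08 FPKM in Scr_300, Scr_600, Nfat5-KO_300 and Nfat5-KO_600. Nfat5-KO_600 alone stood apart, with a hypertonic log2 ratio of 0.68 in Nfat5-KO cells that a pseudocount of 1 brought to 0.53.

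Bid (chromosome 6, 120891930 to 120916853, minus strand) links the death receptors to mitochondria, since caspase 8 cuts it into its active form. It was at 12.0 FPKM in Scr_300, 16.9 in Scr_600, 13.6 in Nfat5-KO_300 and 9.86 in Nfat5-KO_600. The isotonic groups lay between the hypertonic ones, with a log2 ratio of 0.49 in Scr and -0.46 in Nfat5-KO cells, a difference of -0.95. Between the genotypes at 600 mosmol/kg the log2 ratio was -0.77. Bid overlaps the annotated gene Gm44260 on the same strand, and reads of the shared part cannot be assigned to either. On the other strand it overlaps Bcl2l13, which was at 9.26, 9.60, 11.2 and 12.1 FPKM in Scr_300, Scr_600, Nfat5-KO_300 and Nfat5-KO_600. Whether reads were counted by strand is not given in the sources used here, so that reads of the overlap may have been shared or dropped.

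The remaining BH3-only genes stayed within 1.5-fold or were hardly detected. Bad, whose product is inactivated by survival kinases, was between 18.7 and 24.3 FPKM. Pmaip1, whose product binds MCL1, was at 13.9 FPKM in Scr_300, 9.81 in Scr_600, 14.8 in Nfat5-KO_300 and 11.7 in Nfat5-KO_600, below its isotonic level in both hypertonic groups with log2 ratios of -0.49 and -0.33. Bik was at 0.130 FPKM or less in every group. Hrk was at 0.00389 FPKM or less and is listed at 0 in Scr_300.

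Fas (chromosome 19, 34290666 to 34327772, plus strand), the receptor of Fas ligand, had the largest difference between the genotypes. It was at 0.515 FPKM in Scr_300, 0.257 in Scr_600, 0.592 in Nfat5-KO_300 and 1.14 in Nfat5-KO_600. The isotonic groups were close to each other, Scr_600 was the lowest and Nfat5-KO_600 the highest. The log2 ratio between the genotypes was 0.17 at 300 and 1.80 at 600 mosmol/kg. The hypertonic ratios were -0.78 in Scr and 0.85 in Nfat5-KO cells, a difference of 1.63. These levels are low, above only 8.21% of the genes used in Scr_300, and a pseudocount of 1 brought the hypertonic ratios to -0.27 and 0.43, with the same signs. The ratio between the genotypes at 600 mosmol/kg and the difference stayed over 1.5-fold with it. Fas overlaps the annotated gene Gm27818 on the same strand, and reads of the shared part cannot be assigned to either. Fasl, the gene of the ligand, was at 0.0372 FPKM or less in every group.

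**Figure D4:**
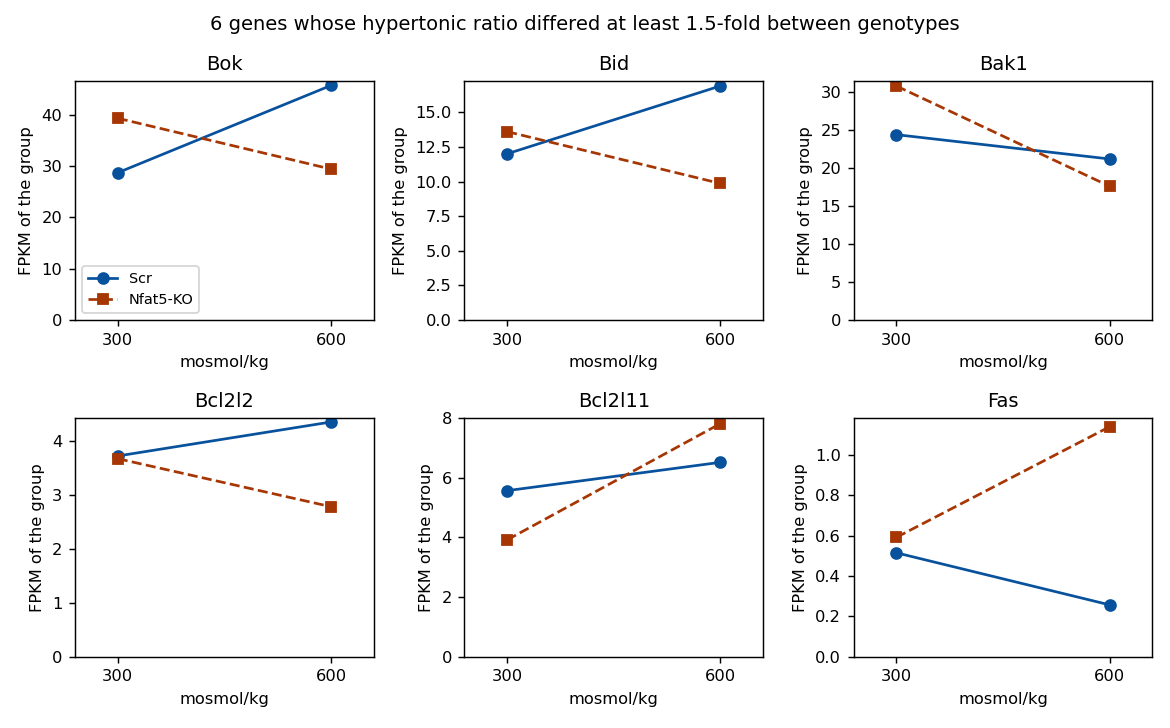
FPKM of the group at 300 and 600 mosmol/kg is drawn for Scr (solid, circles) and Nfat5-KO cells (dashed, squares) for the 6 genes whose hypertonic ratios differed at least 1.5-fold between the genotypes, each axis from 0. The lines of Bok, Bid, Bak1 and Bcl2l11 cross, those of Bcl2l2 start together and part at 600 mosmol/kg, and those of Fas move apart.

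The other genes of the death receptor pathway were within 1.5-fold in all comparisons. Tnfrsf10b, the mouse receptor of TRAIL, was at 5.09 FPKM in Scr_300, 4.34 in Scr_600, 7.17 in Nfat5-KO_300 and 5.38 in Nfat5-KO_600. Tnfrsf1a, the main receptor of TNF, which can signal survival or death, was at 16.7, 17.6, 22.9 and 20.7 FPKM in the same order. Both were above Scr in Nfat5-KO cells at each osmolality, with log2 ratios of 0.48 and 0.46 at 300 and of 0.30 and 0.23 at 600 mosmol/kg. Fadd, the adaptor between Fas and caspase 8, was at 5.37, 5.25, 4.18 and 3.70 FPKM, lower in Nfat5-KO cells with log2 ratios of -0.35 and -0.50. Ripk1, a kinase of survival and death signaling, was between 3.55 and 3.91 FPKM. Cflar, whose product FLIP blocks caspase 8, was between 3.21 and 3.53 FPKM.

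Of the 4 caspases among the members with at least 0.5 FPKM, Casp2, Casp6 and Casp8 had lower values at 600 mosmol/kg in both genotypes. Casp6 (chromosome 3, 129901425 to 129914103, plus strand), an executioner caspase, was at 3.08 FPKM in Scr_300, 1.92 in Scr_600, 3.32 in Nfat5-KO_300 and 2.34 in Nfat5-KO_600. Both hypertonic groups lay below both isotonic groups, with log2 ratios of -0.66 in Scr and -0.49 in Nfat5-KO cells, of which the first was -0.48 with a pseudocount of 1. Casp8, the initiator of the death receptor pathway, was at 18.0, 13.8, 19.0 and 13.6 FPKM in Scr_300, Scr_600, Nfat5-KO_300 and Nfat5-KO_600. Its log2 ratios of -0.37 and -0.48 were within 1.5-fold, as were those of Casp2, an initiator caspase linked to DNA damage, with -0.30 and -0.31. Casp9, the initiator of the mitochondrial pathway, was between 2.39 and 3.00 FPKM. Casp12 was at 0.0906 FPKM or less in every group.

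The genes of the apoptosome and of mitochondrial release had no ratio of 1.5-fold. Apaf1, the scaffold on which caspase 9 is activated, was at 6.05 FPKM in Scr_300, 6.04 in Scr_600, 5.15 in Nfat5-KO_300 and 7.22 in Nfat5-KO_600. Nfat5-KO cells held its lowest and its highest level, with a hypertonic log2 ratio of 0.48 that columns scaled to an equal sum brought to 0.73. Cycs, encoding cytochrome c, was at 28.6, 23.6, 32.2 and 22.8 FPKM, lower at 600 mosmol/kg in both genotypes by less than 1.5-fold. Diablo, whose product SMAC removes inhibitors from caspases, was between 1.36 and 1.46 FPKM.

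Among the inhibitors of apoptosis proteins, Birc6 stood apart by genotype rather than by osmolality. Birc6 (chromosome 17, 74528295 to 74703356, plus strand) encodes a very large ubiquitin ligase that binds caspases and SMAC. It was at 5.03 FPKM in Scr_300, 5.39 in Scr_600, 7.48 in Nfat5-KO_300 and 9.36 in Nfat5-KO_600. Both Nfat5-KO groups lay above both Scr groups, with log2 ratios of 0.56 at 300 and 0.79 at 600 mosmol/kg. The first was 0.59, at least 1.5-fold, with columns scaled to an equal sum. Xiap, the direct inhibitor of caspases, was at 10.3, 10.5, 8.62 and 11.4 FPKM in Scr_300, Scr_600, Nfat5-KO_300 and Nfat5-KO_600, and Birc2 (encoding cIAP1) at 3.92, 4.50, 3.51 and 4.56 FPKM. Both had their lowest level in Nfat5-KO_300 and their highest in Nfat5-KO_600, within 1.5-fold. Birc3 (encoding cIAP2) was at 0.0139 FPKM or less in every group.

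Of the genes that act on DNA in dying cells, Endog (chromosome 2, 30171493 to 30174069, plus strand), a mitochondrial nuclease, was at 6.55 FPKM in Scr_300, 4.65 in Scr_600, 7.09 in Nfat5-KO_300 and 4.21 in Nfat5-KO_600. It was below its isotonic level in both hypertonic groups, with log2 ratios of -0.48 in Scr and -0.74 in Nfat5-KO cells, and the latter was -0.51 with columns scaled to an equal sum. Dffb, the caspase-activated nuclease, was at 2.09, 2.94, 2.08 and 3.10 FPKM in Scr_300, Scr_600, Nfat5-KO_300 and Nfat5-KO_600, above its isotonic level in both hypertonic groups with log2 ratios of 0.47 and 0.56. The second was 0.62 after division by median-of-ratios factors. Dffa, its inhibitor and chaperone, was between 6.42 and 7.25 FPKM. Aifm1, a mitochondrial flavoprotein that can move to the nucleus, was between 19.7 and 23.6 FPKM.

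**Figure D5:**
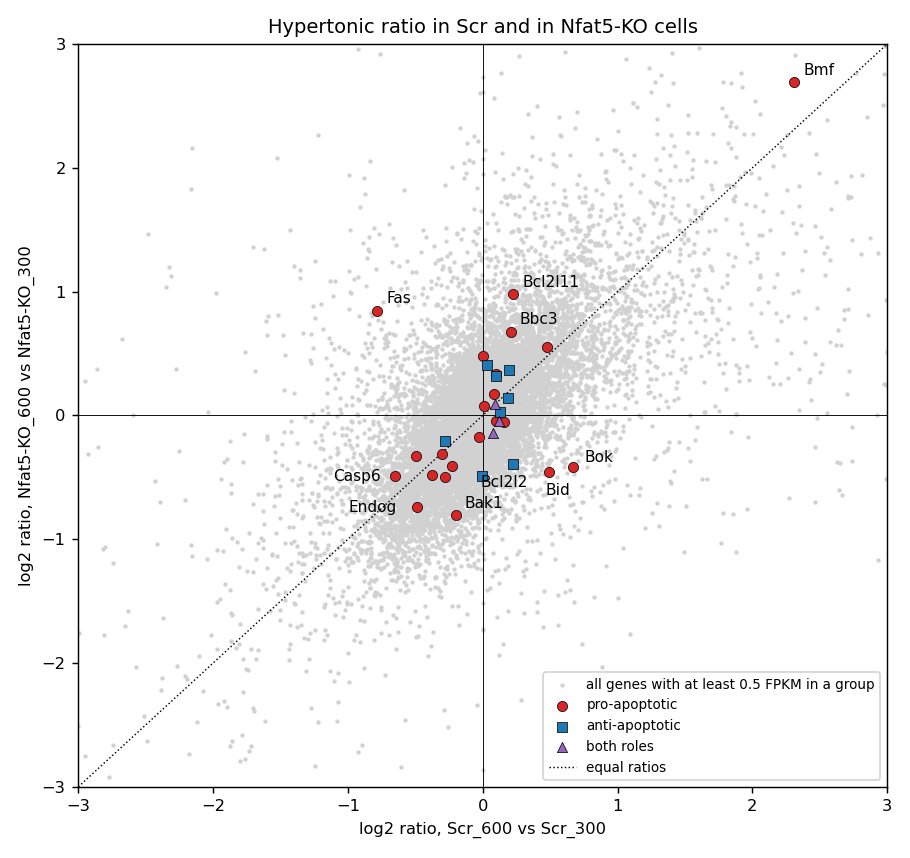
The log2 ratio of 600 against 300 mosmol/kg in Nfat5-KO cells (vertical) is plotted against that in Scr cells (horizontal) for 33 members, coloured by role, over all 13414 genes in grey, of which 98 lie outside the axes at ±3. Bmf lies at the upper right in both genotypes, Fas at the upper left, and Bok and Bid at the lower right, while most other members lie within the dense cloud of all genes.

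Neighboring genes were compared for the members that stood apart by genotype, because knockout cells came from 2 clones. The median log2 ratio of genes within 5 Mb of Birc6 was 0.20 at 300 and -0.09 at 600 mosmol/kg (36 genes each), beside 0.56 and 0.79 for Birc6. Around Bid it was 0.18 at 600 mosmol/kg over 84 genes, opposite in sign to Bid. Genes around Fas, Bok and Bcl2l2 had medians of -0.02 over 49, 0.06 over 47 and -0.08 over 105 genes at 600 mosmol/kg. Around Mcl1 the medians were 0.27 over 108 genes at 300 and 0.30 over 110 genes at 600 mosmol/kg, which is larger than the ratios of Mcl1 itself, 0.20 and 0.27. The part of the region in the level of Mcl1 was not tested.

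Promoters were examined because NFAT5 binds DNA at a motif with the core TGGAAA. The RefSeq promoter windows of GRCm38.p6, from 250 bases before to 50 bases after a start, covered 34 of the 37 genes with 46 windows, and Bik, Pmaip1 and Tnfrsf10b had no entry. TGGAAA was found on either strand in 3 of the 46 windows (6.52%), namely a pair of windows of Bmf and the window of Dffa. Of all 32851 windows 21.4% held it, and of the 11526 windows whose genes passed the filter 16.3%. The longer tonicity-responsive enhancer consensus was in none of the 46 windows. It was in 4.96% of all windows and in 3.60% of those whose genes passed the filter. The median GC content was 61.8% in the windows of the members and 61.0% in those of the 11526 windows. A match is a stretch of letters and not a shown binding site, and its absence from a window says nothing about sites elsewhere. The 250 bases before the start are printed for the gene with the largest hypertonic ratios and for the 3 genes whose hypertonic ratios differed most between the genotypes, 5′ to 3′ on the strand of the gene, in lower case, with capitals for the core, which reads TTTCCA where it lies on the opposite strand.
Bmf, chr2:118549687-118549936, minus strand: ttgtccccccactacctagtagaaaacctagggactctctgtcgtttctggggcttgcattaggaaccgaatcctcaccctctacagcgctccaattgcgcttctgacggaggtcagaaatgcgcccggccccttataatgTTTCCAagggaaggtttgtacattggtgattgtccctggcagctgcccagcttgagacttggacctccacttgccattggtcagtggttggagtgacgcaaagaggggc
Bok, chr1:93685325-93685574, plus strand: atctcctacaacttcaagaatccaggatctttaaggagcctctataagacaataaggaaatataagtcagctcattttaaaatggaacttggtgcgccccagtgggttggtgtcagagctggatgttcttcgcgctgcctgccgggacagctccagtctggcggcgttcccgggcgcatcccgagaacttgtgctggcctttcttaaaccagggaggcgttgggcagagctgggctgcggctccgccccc
Bid, chr6:120916825-120917074, minus strand: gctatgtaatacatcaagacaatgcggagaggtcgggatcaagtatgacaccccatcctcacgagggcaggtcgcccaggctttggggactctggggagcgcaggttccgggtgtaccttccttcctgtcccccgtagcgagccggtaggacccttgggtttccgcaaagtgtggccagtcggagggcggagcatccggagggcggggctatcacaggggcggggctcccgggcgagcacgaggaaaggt
Fas, chr19:34290409-34290658, plus strand: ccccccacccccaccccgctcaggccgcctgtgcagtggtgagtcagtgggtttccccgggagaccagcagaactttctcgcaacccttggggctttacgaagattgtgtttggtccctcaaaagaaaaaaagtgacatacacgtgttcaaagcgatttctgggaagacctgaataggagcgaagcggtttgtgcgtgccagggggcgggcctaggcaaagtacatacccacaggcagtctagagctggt
Bmf has 3 windows, of which the one farthest upstream is printed. In it the core starts 109 bases before the start of the transcript. Another holds the core 73 bases before its start, and the remaining window holds none. The windows of Bok, Bid and Fas hold no core.

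The rest of the pathway was followed in a list of 68 further apoptosis genes. At 600 mosmol/kg, 47 of them could be compared between the genotypes, of which 2 were higher and 8 lower in Nfat5-KO cells, beside 9.84% and 9.44% of all genes. Their median log2 ratio was -0.14. At 300 mosmol/kg, 2 of 45 were higher and 3 lower, beside 5.27% and 6.21%. With hypertonicity, 3 were higher and 3 lower of 46 in Scr cells, beside 10.4% and 9.01% of all genes. In Nfat5-KO cells, 3 were higher and 10 lower of 45, beside 14.1% and 13.8%. Bnip3, a mitophagy gene related to the BCL2 family, was at 33.5 FPKM in Scr_300, 12.8 in Scr_600, 20.5 in Nfat5-KO_300 and 6.20 in Nfat5-KO_600, lower at 600 mosmol/kg in both genotypes and lower in Nfat5-KO cells at both osmolalities.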

How the data were processed

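The authors removed low-quality reads, mapped pairs to GRCm38 (mm10) by HISAT2, counted them per gene by HTSeq and derived RPKM. The deposited FPKM values are 1 per gene and group. How libraries were combined, the annotation release, the strand setting and the depth are not given in the sources used here, so no interval was calculated. Of 54839 rows, 2436 had no value, 311 were exact duplicates and 37 symbols had several different rows and were left out. Tests had been planned for values per library and were not possible with 1 value per group. Instead, FPKM + 0.1 was compared as a log2 ratio. A gene entered a comparison when a group in it reached 0.5 FPKM, and 1.5-fold was the threshold. Single ratios needed 0.1 FPKM in both groups. Scripts were checked on simulated data. Members and lists were chosen with earlier results of these data known. All 37 members are accounted for, those at least 1.5-fold with every value; other genes were named if at least 2-fold with at least 1 FPKM, besides Nfat5. Some genes of the further lists are not reported here. Fasl, Bcl2l13, Trp53, Tigar, Perp and the marker genes were named after their values were seen. Positions are from GENCODE for GRCm38 and promoters from RefSeq. Alternatives were other pseudocounts, filters, scalings (median-of-ratios factors, columns of equal sum) and a 2-fold threshold. Scripts used pandas 2.3.3, numpy 2.4.6 and matplotlib 3.10.9 under Python 3.11.15.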

Additional observations from a re-analysis of the deposited data

How the results depend on the processing

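With 1 value per group, libraries could not be left out and precision is unknown. No paired analysis was possible because the deposited columns carry no replicate. A pseudocount of 0.01 and median-of-ratios factors moved no count of members by over 1.5 times and no median by over 0.1. A pseudocount of 1 gave 0 members lower in hypertonic Scr cells and 2 higher in hypertonic Nfat5-KO cells, beside 5.11% and 7.76% of all genes. It left 2 members with a negative difference of hypertonic ratios, beside 5.06% of all genes. Without a filter, 2 members were lower in isotonic Nfat5-KO cells, beside 3.38% of all genes. With at least 1 FPKM, 1 was lower in hypertonic Scr cells, beside 8.09%. A threshold of 2-fold left 1 higher and 0 lower in Nfat5-KO_600 against Scr_600, in Scr_600 against Scr_300 and in Nfat5-KO_600 against Nfat5-KO_300, and 1 in each direction for the difference. The shares of all genes higher and lower were then 3.76% and 3.68%, 4.81% and 2.86%, 6.25% and 4.11%, and 3.88% and 3.16%, in this order. Columns scaled to an equal sum were run with the filter and pseudocount unchanged, which weakens both on the larger values. They gave 1 higher in isotonic and 1 lower in hypertonic Nfat5-KO against Scr cells. For hypertonicity they gave 4 higher and 1 lower in Scr, 9 higher and 0 lower in Nfat5-KO, and 5 and 2 for the difference. For the difference, 20.5% of all genes were then higher and 10.3% lower, and the shares for the other comparisons are given above. The medians of pro- and anti-apoptotic genes were then 0.11 and 0.20 in Nfat5-KO_600 against Scr_600, 0.14 and 0.24 for hypertonicity in Scr, 0.19 and 0.33 in Nfat5-KO, and 0.18 and 0.12 for the difference, beside a median of all genes of 0.14, 0.10, 0.26 and 0.12. This shift in all genes comes with the division of each column by its FPKM sum, which was unequal between the groups. The cause of the unequal sums was not tested. No ratio of at least 1.5-fold changed its sign under any alternative run.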

Other observations

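The targets of 3 stress pathways close to apoptosis were counted in Nfat5-KO_600 against Scr_600. The list of p53 targets had 17 genes with at least 0.5 FPKM, Trp53 itself included. Of these, 5 were higher and 0 lower in Nfat5-KO_600 than in Scr_600, beside 9.84% and 9.44% of all genes. The median log2 ratio of the list was 0.11. With hypertonicity in Nfat5-KO cells, 4 were higher and 4 lower, beside 14.1% and 13.8% of all genes. Trp53inp1, a p53-induced regulator of cell death and autophagy, was at 1.40 FPKM in Scr_300, 1.23 in Scr_600, 1.45 in Nfat5-KO_300 and 7.66 in Nfat5-KO_600. Mdm2, the ubiquitin ligase of p53, was at 12.4, 14.0, 14.6 and 29.4 FPKM, and Ccng1 at 16.1, 11.0, 18.4 and 28.9 FPKM in the same order. Each of these had its highest level in Nfat5-KO_600, whereas Trp53 itself was between 36.3 and 42.6 FPKM. Others of the list had lower levels in hypertonic than in isotonic Nfat5-KO cells, with log2 ratios of -1.23 for Plk2, -1.20 for Rrm2b, -0.84 for Tigar and -0.66 for Perp.

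Of 16 NF-kB target genes, 8 were lower and 0 higher in Nfat5-KO_600 than in Scr_600, beside 9.44% and 9.84% of all genes. The other 8 were within 1.5-fold, and 3 of the 16 had a log2 ratio above 0. Their median log2 ratio was -0.66. At 300 mosmol/kg, 1 of the 16 was higher and 1 lower in Nfat5-KO cells, beside 5.27% and 6.21% of all genes. The chemokine genes Cxcl1 and Cxcl2 were at 25.5 and 16.7 FPKM in Scr_300, 19.2 and 14.7 in Scr_600, 20.7 and 11.3 in Nfat5-KO_300 and 5.31 and 3.41 in Nfat5-KO_600. The list of ATF4 and CHOP targets had 13 genes, Atf4 itself included. Of these, 0 were higher and 5 lower in Nfat5-KO_600 than in Scr_600, beside 9.84% and 9.44% of all genes. The median log2 ratio of these 13 was -0.33. Nupr1 was at 8.98 FPKM in Scr_300, 58.2 in Scr_600, 1.47 in Nfat5-KO_300 and 2.73 in Nfat5-KO_600, so that it was lower in Nfat5-KO cells at both osmolalities. With hypertonicity in Nfat5-KO cells, 2 of the 13 were higher and 3 lower, beside 14.1% and 13.8% of all genes. None of these counts was tested.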
